A study of Glycine max with 20 samples.

Results

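The comparison of the soybean (Glycine max) lines W and BC late in an aphid infestation, at 24 and 48 h, rests on 8 of the 20 leaf RNA-seq libraries of the study. These are the 8 columns of the deposited count table named for W or BC at 24 or 48 h, with 2 biological replicates per line and time, and all 8 come from infested leaves. The other 12 libraries hold the same lines at 0 h, before aphids were placed, and at 4 and 8 h. The lines are a near-isogenic pair, labelled rag2 (susceptible to aphids) and Rag2 (resistant), but neither the labels nor the table say whether W or BC is the resistant one. All differences are therefore given as BC minus W, and none as resistant minus susceptible. No uninfested leaves are labelled for 24 or 48 h, so age or time of day and the length of infestation cannot be told apart, and a difference between the lines at these hours need not be a response to aphids.

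The soybean aphid feeds on phloem sap, which it reaches by pushing its stylets between leaf cells. Resistance loci named Rag are known from soybean, and Rag2 was mapped to chromosome 13. Near-isogenic lines are made by repeated backcrossing, so they share most of their genome and differ at the selected locus, at DNA still linked to it, and at any other segment carried along. A gene inside such a segment can differ between the lines at every time, infested or not, because its copy, its promoter or its match to the reference sequence differs. Reads of a diverged copy can also fail to align to the reference, which counts as a lower level.

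The 8 libraries held 7692936 to 38227436 reads in gene models, and 41702 to 47700 models had a read. The 2 W libraries of 48 h stood apart from the other 6. On the first principal component, which carried 30.5% of the variance, they lay at 88.0 and 80.5, and the other 6 between -56.3 and -7.99. The 100 most abundant models took 22.1% and 19.5% of the reads in the W 48 h libraries, against 13.6% to 16.9% in the other 6. Their reads outside any gene model, at 2.79% and 3.03%, were the lowest shares of all 20 libraries. Whether these features had a part in the line differences was not tested. Counts of calls at 24 h are given beside those of both hours, and 24 h results of single models only for some. The 24 h results contrast the 24 h libraries only. Their filter, scaling and estimate of spread came from all 8 libraries, the W 48 h libraries included. Leaf identity could not be checked against marker genes, because the model names matched no gene name in the reference table at hand.

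The models called at 24 and 48 h differed between the lines by a lot, and their number depended on the test. With the quasi-likelihood test of edgeR, with hour as a covariate and Benjamini-Hochberg adjustment, 15 of 37485 tested models were called at an adjusted p below 0.05, which is 0.0400%. Of these, 6 were higher in BC (0.0160%) and 9 were lower (0.0240%). All 15 differed by at least 2-fold, with a median absolute log2 difference of 3.71, against 0.18 over all models tested. An unadjusted p below 0.05 was reached by 3795 models, or 10.1%. DESeq2 called 389 models (157 higher, 232 lower), limma voom with library weights 51 (15 higher, 36 lower), edgeR without the filter on low counts 27, and the edgeR fit to all 20 libraries 27. All 15 models were among the calls of DESeq2, of voom and of the fit without the filter. The fit to all 20 libraries called 13 of them. It did not call Glyma13g43250.1 and Glyma15g02090.1, each with an edgeR adjusted p of 0.746. The edgeR count also depended on single libraries: it was 8 without W 48 h replicate 2, and 9 without BC 24 h replicate 1, BC 24 h replicate 2 or BC 48 h replicate 1. Without any 1 library it stayed between 8 and 12, and 8 of the 15 models were called in each of those fits.

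The 6 models higher in BC ranged from no reads at all in W to a low but measurable W level. Levels are CPM, counts scaled by the TMM-scaled size of each library, which suit comparison of 1 model between libraries and not between models. Glyma13g25990.1 had 0 reads in all 4 W libraries. In BC it was at 2.43 and 2.14 CPM at 24 h and at 2.81 and 2.40 CPM at 48 h. The 211 BC reads stood against none in W, which is at least 44.7-fold higher with a floor of 3 reads summed over the W libraries (adjusted p = 0.0353, edgeR). The BC libraries lay close together, with a mean of 2.45 ± 0.276 CPM (SD, n = 4). That call was lost without 7 of the 8 libraries in turn.

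Glyma13g32470.1 was read in W only a few times. It was at 0 and 0.0487 CPM in W at 24 h and at 0.0815 and 0.517 CPM in W at 48 h. In BC it was at 10.8 and 17.1 CPM at 24 h and at 18.1 and 18.3 CPM at 48 h. No W library came near the lowest BC library, and the 1378 BC reads against 6 W reads gave a ratio of 146 (exact 95% interval 66.9 to 399, counting error only). The log2 difference was 7.07 ± 0.51 (SE) with an adjusted p of 0.00219 in the edgeR test. Of the 6 W reads most fell in W 48 h replicate 2, and the fitted log2 difference was 8.71 at 24 h and 6.09 at 48 h.

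Glyma06g43880.1 was read in every library of both lines. Its W libraries read 2.12 and 0.974 CPM at 24 h and 1.305 and 2.71 CPM at 48 h. Its BC libraries read 53.1 and 28.4 CPM at 24 h and 49.4 and 48.1 CPM at 48 h. The lines did not overlap at either hour, with means of 1.78 ± 0.788 and 44.7 ± 11.1 CPM (SD, n = 4), a 25.1-fold difference (edgeR adjusted p = 0.00210). BC 24 h replicate 2 was the lowest BC library and still more than 10 times the highest W library. In the 24 h contrast of an edgeR fit to the same 8 libraries its adjusted p was 0.0793. Of the 15 called models, 8 were called in that contrast, and Glyma06g43880.1 was among those that were not.

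Glyma02g34480.1 varied little within each line. It read 0.304, 0.292, 0.163 and 0.258 CPM in W and 3.58, 3.46, 3.20 and 3.54 CPM in BC, in the order 24 h replicates 1 and 2 and 48 h replicates 1 and 2. Every BC library was far above every W library, 13.5-fold by the means (log2 difference 3.71 ± 0.26 SE, edgeR adjusted p = 0.00193). The next model along chromosome 2, Glyma02g34490.1, averaged 0.249 CPM in W and 4.96 CPM in BC. Its log2 difference of 4.20 missed the threshold over both hours (edgeR adjusted p = 0.0781).

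Glyma13g25970.1 lies next but one to Glyma13g25990.1 by locus number. In the same order it read 2.06, 1.36, 0.734 and 0.904 CPM in W and 9.60, 10.3, 10.2 and 7.83 CPM in BC. The lines were 7.47-fold apart with no overlap (log2 difference 2.91 ± 0.25 SE, edgeR adjusted p = 0.00564). Glyma09g41840.1 was all but absent from W. It read 0.0607, 0.0487, 0 and 0 CPM in W and 1.11, 1.89, 1.56 and 1.39 CPM in BC. With 139 reads against 2, the ratio was 44.2 with an exact 95% interval of 12.002 to 368, and the edgeR adjusted p of 0.0301 was lost without each of the 8 libraries in turn.

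The 9 models lower in BC fell into 2 that were nearly absent from BC and 7 that were present in both lines. Glyma11g12980.1 had the smallest BC level for its W level. In W it was at 6.92 and 7.02 CPM at 24 h and at 5.14 and 5.17 CPM at 48 h. In BC it was at 0.0348 and 0.0498 CPM at 24 h and at 0 in both libraries of 48 h. W thus held 361 reads and BC 3, a ratio of 189 (exact 95% interval 64.3 to 922), with an edgeR adjusted p of 1.87e-04. Glyma13g29650.1 read 1.21, 3.02, 1.06 and 1.68 CPM in W, and its only BC read was in BC 24 h replicate 2. That is 108 reads against 1, a ratio of 170 with the wide exact interval of 29.9 to 6772 (edgeR adjusted p = 0.0233), and the call was lost without 6 of the 8 libraries in turn.

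Glyma06g44010.1, close to Glyma06g43880.1 on chromosome 6 and opposite in direction, had the smallest p-value of all models tested. In W it read 16.4, 17.4, 13.6 and 14.7 CPM, and in BC 0.904, 1.17, 1.09 and 1.14 CPM. The spread within a line was small beside the 14.4-fold gap between them (log2 difference -3.87 ± 0.16 SE, edgeR adjusted p = 1.18e-04). Glyma14g17850.1 read 22.6, 24.7, 22.3 and 17.1 CPM in W and 3.23, 3.06, 2.73 and 4.29 CPM in BC. It was 6.50-fold lower in BC, again with no overlap (edgeR adjusted p = 0.00132).

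Glyma09g41100.1 was 4.33-fold lower in BC. Its W libraries lay between 39.1 and 51.8 CPM and its BC libraries between 9.60 and 11.7 CPM, a log2 difference of -2.13 ± 0.11 (SE) with an edgeR adjusted p of 2.97e-04. Glyma13g27090.1 read 23.4, 19.5, 21.7 and 21.6 CPM in W and 3.82, 4.16, 5.62 and 6.82 CPM in BC. Both BC libraries of 48 h were above both of 24 h, yet all 4 were far under W, 4.22-fold by the means (edgeR adjusted p = 0.00219). Its line difference was -2.41 at 24 h and -1.84 at 48 h on the log2 scale, and the change between the hours had an unadjusted p of 0.0473 and an edgeR adjusted p of 0.367.

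The other 3 were about 2-fold lower in BC, and each call was lost without each of the 8 libraries in turn. Glyma06g47340.1 lay between 13.9 and 19.1 CPM in W and between 5.65 and 7.96 CPM in BC, a 2.52-fold difference (edgeR adjusted p = 0.0435). Glyma13g43250.1 lay between 18.5 and 24.6 CPM in W and between 8.97 and 12.03 CPM in BC, a 2.21-fold difference (edgeR adjusted p = 0.0301). Glyma15g02090.1 lay between 96.5 and 123 CPM in W and between 50.6 and 57.8 CPM in BC, a 2.00-fold difference (edgeR adjusted p = 0.0301). In all 3 the highest BC library was below the lowest W library.

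**Figure D1:**
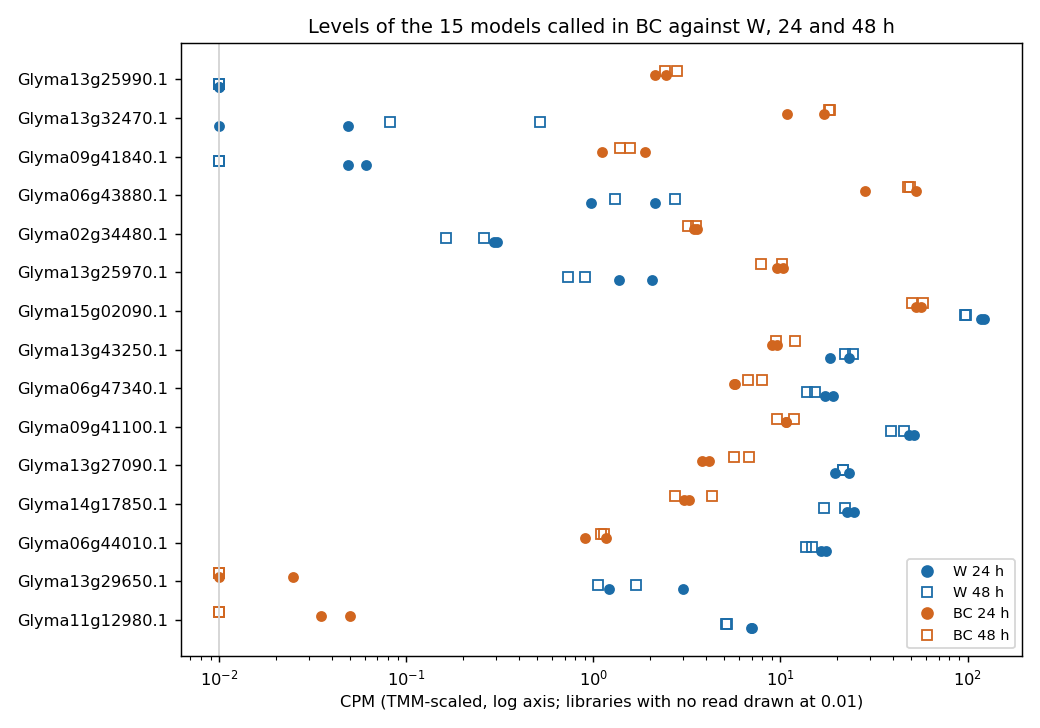
Levels of the 15 called models in the 8 libraries of 24 and 48 h, as CPM on a log axis, with 1 point per library, W and BC in separate colours and libraries without a read drawn at 0.01. In each of the 15 models the 4 BC libraries lie wholly above (6 models) or wholly below (9 models) the 4 W libraries.

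The line difference had the same sign at 24 and 48 h in all 15 called models. It had an unadjusted p below 0.05 at each hour in all 15, and the lines did not overlap within 24 h or within 48 h in any of them. The choice of these models rests on both hours together, so this describes them and does not test them. The 12 libraries of 0, 4 and 8 h were not used to choose them and carry the same comparison. In those libraries 14 of the 15 models had the same sign, and 11 were called in a separate edgeR fit (adjusted p below 0.05), which called 29 of 38272 models, or 0.0758%. An unadjusted p below 0.05 was reached by 13 of the 15, against 5.21% of all models. In 13 of the 15 the 6 earlier BC libraries did not overlap the 6 earlier W libraries, against 0.337% of all models.

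The size of the earlier difference was close to the later one in some models and not in others. For Glyma06g43880.1, in the earlier libraries, the level ran from 0.893 over a median of 1.34 to 2.16 CPM in W, and from 21.9 over 44.5 to 59.9 CPM in BC. The log2 difference there was 4.95, beside 4.69 at the later hours (edgeR adjusted p = 2.23e-05 in the earlier libraries). Glyma06g44010.1 ran from 13.7 over 17.6 to 23.3 CPM in W and from 0.442 over 0.759 to 2.29 CPM in BC before 24 h. Its log2 difference was -4.34 there and -3.87 later. In both models the lines did not overlap at 0 h, in leaves that carried no aphids. Glyma13g32470.1 varied more: the log2 ratio of the means was 7.93 at 0 h and 4.25 at 8 h, and its earlier BC libraries ran from 2.00 to 29.1 CPM. For Glyma09g41100.1 that ratio was -0.88 at 0 h, where BC replicate 2 read 35.9 CPM, and -2.23 at 4 h.

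The earlier libraries of the lines overlapped in Glyma13g43250.1 and Glyma15g02090.1. In the earlier libraries Glyma13g43250.1 ran from 5.71 to 20.0 CPM in W and from 4.16 to 43.6 CPM in BC, and Glyma15g02090.1 from 42.9 to 107 CPM in W and from 26.2 to 299 CPM in BC. The log2 differences there were 0.25 and -0.07 (edgeR adjusted p = 0.888 and 0.976). Both BC maxima came from BC 0 h replicate 2, which had the largest share of reads outside gene models, at 7.46%. BC 0 h replicate 1 read 15.6 and 110 CPM, and the earlier libraries overlapped without replicate 2 as well. At 0 h Glyma15g02090.1 was higher in both BC libraries than in both W libraries, the reverse of its later direction. At 4 and 8 h both its BC libraries were already below both W libraries, with a log2 ratio of the means of -0.76 at each hour, against 1.39 at 0 h. The test of the later against the earlier line difference gave -1.38 with an unadjusted p of 0.0115 for Glyma13g43250.1 and -0.95 with an unadjusted p of 0.0365 for Glyma15g02090.1, and both had an edgeR adjusted p of 0.847. Neither is therefore shown to differ between the lines only late. Glyma09g41840.1 was also higher in BC early, with a log2 difference of 3.12 that missed the threshold (edgeR adjusted p = 0.0619). Its later line difference exceeded the earlier one by 3.08 (unadjusted p = 0.0199, edgeR adjusted p = 0.847), and these 3 were the called models with an unadjusted p below 0.05 in that test.

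**Figure D2:**
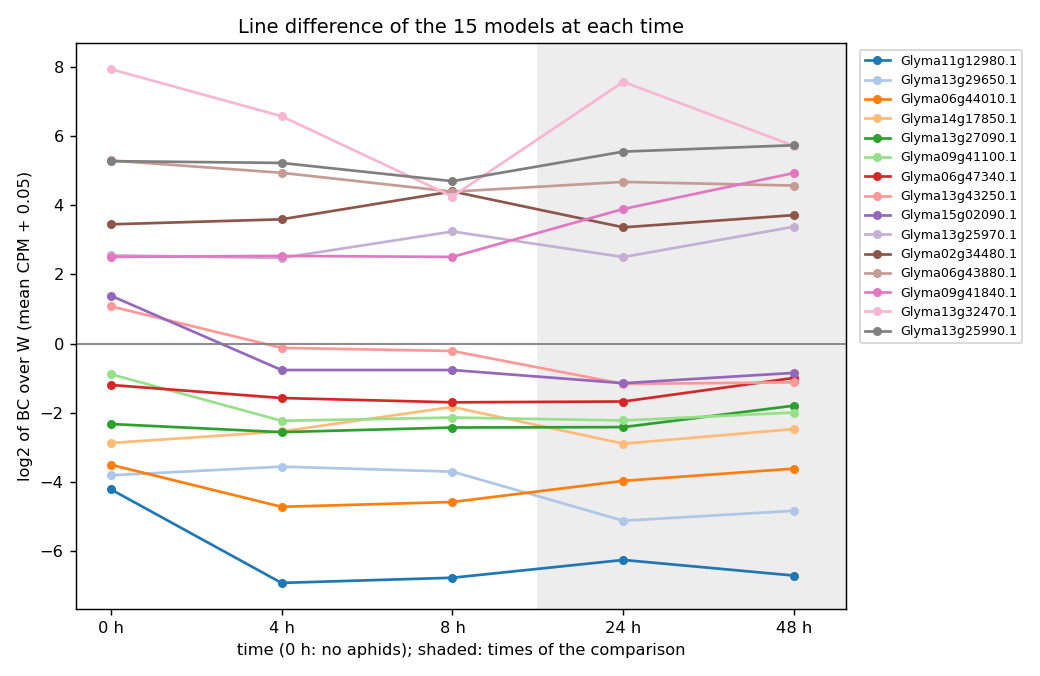
The BC over W ratio of mean CPM, on the log2 scale, of the 15 called models at 0, 4, 8, 24 and 48 h, with 2 libraries per line and time, the times evenly spaced and 24 and 48 h shaded. A value of 0.05 CPM was added to each mean. In 13 of the 15 models the lines lie on the same side without overlap at each of the 5 times, 0 h included; Glyma13g43250.1 overlaps at 0, 4 and 8 h, and Glyma15g02090.1 is higher in BC at 0 h.

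Across all models, edgeR called no change of the line difference between the earlier and the later hours. In the fit to all 20 libraries, 0 of 38918 models had a later line difference that departed from the earlier one at an edgeR adjusted p below 0.05, 2152 had an unadjusted p below 0.05 (5.53%), and DESeq2 called 1. The smallest p-values belonged to Glyma18g52250.1 (log2 change of the line difference 2.14, unadjusted p = 1.09e-04), Glyma17g32010.1 (3.58), Glyma05g35880.1 (-1.29), Glyma08g25460.1 (2.08) and Glyma05g03020.1 (1.47), all with an edgeR adjusted p of 0.847. Glyma18g52250.1 read 6.92, 8.53, 2.37 and 3.75 CPM in W and 10.1, 14.6, 15.9 and 8.34 CPM in BC at the later hours. Its BC libraries overlapped the W libraries over both hours, and its earlier libraries ran from 8.04 to 29.5 CPM in W and from 2.29 to 16.9 CPM in BC.

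By their names, 6 of the 15 called models lie on chromosome 13, 3 on chromosome 6, 2 on chromosome 9, and 1 each on chromosomes 2, 11, 14 and 15. The names of these models give the chromosome before the letter g and a locus number after it that rises along the chromosome. A wider set was taken from the same libraries and includes the 15. It holds the models whose 4 BC libraries lay all above or all below the 4 W libraries with a difference of at least 2-fold, 230 of 37485 (0.614%), of which 178 were higher in BC (0.475%) and 52 lower (0.139%). Chromosome 13 held 45 of the 230, or 19.6%, with 6.95% of the models tested. That is 1.73% of its tested models, against 1.04% on chromosome 6, 0.875% on chromosome 9, and 0.0579% to 0.806% on the other 17 chromosomes.

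The earlier libraries, which did not choose this set, carried many of the same differences. Of the 45 on chromosome 13, 42 had the same sign at 0 to 8 h and 30 (66.7%) had it with an unadjusted p below 0.05. Of the 174 models of other chromosomes that could be tested early, 147 had the same sign and 44 (25.3%) had it with an unadjusted p below 0.05. Over all models that share was 2.90%. Chromosome 13 also held 15 of the 29 models called in the earlier libraries.

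The fullest stretch was short, and other bins on chromosome 13 and elsewhere held several models. Cut into bins of 100 consecutive tested models, the genome gave 364 full bins, of which 228 held none of the 230 models, 90 held 1, 27 held 2 and 19 held 3 or more. The fullest, on chromosome 13 between locus numbers 24700 and 26250, held 10, of which 8 were higher in BC. Within it, 9 of the 21 tested models between Glyma13g25750.1 and Glyma13g26010.1 qualified, a span set to start and end at qualifying models. All 9 had the same sign in the earlier libraries. The next fullest bin was on chromosome 6, between locus numbers 46930 and 48340, with 6. On chromosome 13 the bins from 29270 to 30750 and from 32130 to 33570 held 5 each. Those from 13830 to 17580, from 26260 to 27940 and from 35080 to 36560 held 4 each. Such bins were not particular to chromosome 13. The chromosome 19 bin from 6340 to 17440 held 5. On chromosome 6 the bins from 43070 to 45210 and from 45220 to 46920 held 4 each. So did the chromosome 9 bin from 40420 to 41740 and the chromosome 10 bin from 200 to 1700.

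Several members of the chromosome 13 stretch were read in 1 line almost alone. Glyma13g25800.1 had 0 reads in all 4 W libraries and 0.452, 8.81, 5.15 and 6.69 CPM in BC, with BC 24 h replicate 1 far under the other 3. It is at least 103-fold higher in BC but missed the threshold (edgeR adjusted p = 0.337), while in the earlier libraries, with 458 BC reads against 2 W reads, it was called (edgeR adjusted p = 3.58e-04). Only Glyma13g25800.1 and Glyma13g25990.1 among the models tested had no W read and at least 10 reads in each BC library. Glyma13g25980.1, between them, read 0.0607, 0.195, 0.0815 and 0 CPM in W and 0.7996, 1.57, 1.56 and 1.39 CPM in BC. It was not called late (log2 difference 3.60, edgeR adjusted p = 0.172) and was called early (5.82, edgeR adjusted p = 0.00195). Glyma13g25940.1 went the other way, with 99 W reads and 3 BC reads (log2 difference -5.32, edgeR adjusted p = 0.0946).

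Neighbours of the called models were counted next. Within 5 places of a call, on either side, lay 134 distinct models that were not themselves called. Of these, 17 (12.7%) did not overlap between the lines, against 5.58% of all models tested. An unadjusted p below 0.05 was reached by 25 (18.7%), against 10.1%. The neighbours without overlap were unevenly placed. Counted with called neighbours, they were 6 of 10 around Glyma13g25970.1 and 5 of 10 around Glyma13g25990.1, and 0 to 2 of 10 around each other call. Reads that align to both of 2 near-identical neighbours could be lost by the counting, so values of such copies would be uncertain. Whether any neighbours here are near-identical could not be checked, because no sequences were used.

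**Figure D3:**
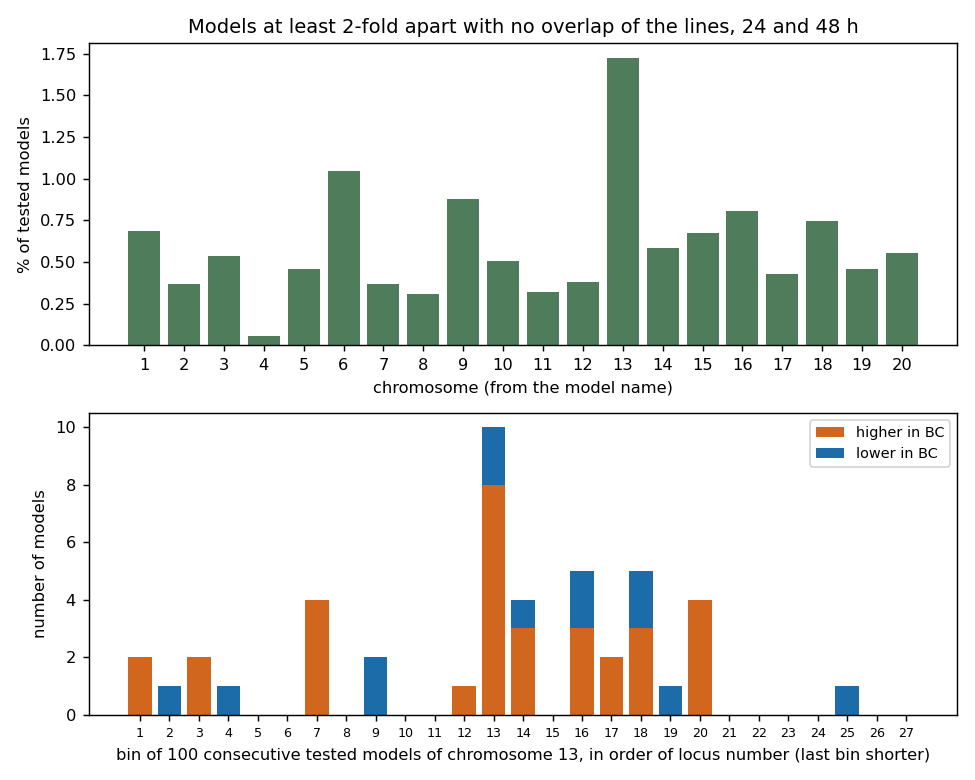
Models without overlap between the lines and with a difference of at least 2-fold at 24 and 48 h, by chromosome, as a percentage of the models tested there (upper panel), and their number in each bin of 100 consecutive tested models of chromosome 13, higher and lower in BC stacked (lower panel). Chromosome 13 has the highest share at 1.73%, followed by chromosome 6 at 1.04% and chromosome 9 at 0.875%, and its bin 13 holds 10 models.

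Taken hour by hour, 24 h gave fewer calls than 48 h. At 24 h 8 models were called (0.0213%), 2 higher (0.00534%) and 6 lower in BC (0.0160%), and at 48 h 29 (0.0774%), 21 higher (0.0560%) and 8 lower (0.0213%), in the edgeR fit with a line by hour term. Without the filter on low counts the counts were 13 and 106, with voom 5 and 10, and with DESeq2 113 and 829. An unadjusted p below 0.05 was reached by 8.70% of models at 24 h and 16.5% at 48 h. All 8 of the 24 h calls had the same sign with an unadjusted p below 0.05 at 48 h, 7 were also called there, and all 8 were among the 15. Of the 29 calls at 48 h, 12 had the same sign with an unadjusted p below 0.05 at 24 h and 9 had the opposite sign. The 48 h count rested on each of 4 libraries: it was 0 without either W 48 h library and 0 without either BC 48 h library, with 3036 to 7158 models at an unadjusted p below 0.05. The 24 h count was 1 without W 24 h replicate 1 or BC 24 h replicate 2, 2 without BC 24 h replicate 1, and 5 without W 24 h replicate 2, BC 48 h replicate 1 or BC 48 h replicate 2.

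Whether any model changed its line difference between the hours depended on the filter and the test. The edgeR test of the line by hour interaction called 0 of 37485 models, and 5052 had an unadjusted p below 0.05 (13.5%). The same test without the filter on low counts called 16, and DESeq2 called 282, and both included the 5 models with the smallest interaction p named next. With voom, with the replicate block, with RLE scaling and without each of the 8 libraries in turn the count was 0. Across all models the log2 differences at 24 and 48 h, which come from separate libraries, had a correlation of 0.0117 and the same sign in 48.2% of models, as a description over models that are not independent. The smallest interaction p belonged to Glyma08g15980.1. It read 8.38 and 11.9 CPM in W at 24 h but 0 and 0.129 CPM in W at 48 h, against 6.99 and 8.26 CPM and then 13.7 and 15.2 CPM in BC. Its line difference was -0.40 at 24 h and 7.95 at 48 h (edgeR adjusted p of the interaction = 0.0714).

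The next 4 by that test moved the same way. Glyma18g14870.1 read 128 and 106 CPM in W at 24 h, 1.47 and 3.23 CPM in W at 48 h, and between 61.5 and 104 CPM in BC. Its line difference went from -0.25 to 5.09, and those of Glyma06g00320.1, Glyma18g12150.1 and Glyma02g14410.1 from -0.37 to 3.14, from -1.15 to 4.49 and from -1.02 to 4.98. Their edgeR adjusted p-values were 0.0833, 0.0833, 0.0839 and 0.0839. In all 5 the W 48 h libraries were low and the other 6 libraries were not.

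**Figure D4:**
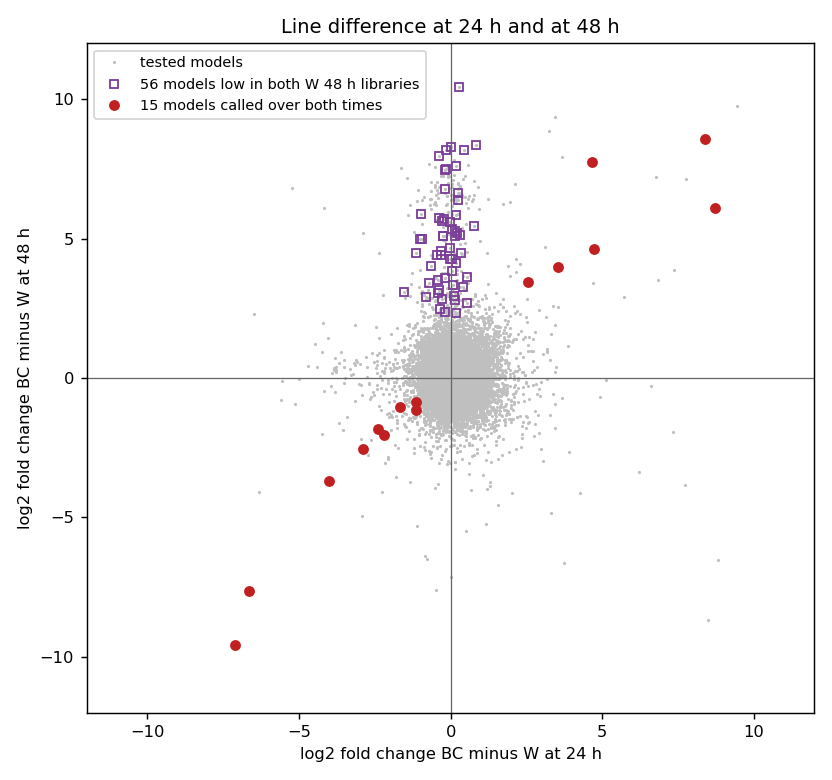
Log2 difference between the lines (BC minus W) at 24 h against that at 48 h for the tested models, with circles for the 15 models called over both hours and open squares for 56 models that were low in both W 48 h libraries. The circles have the same sign at both hours, while the squares have medians of -0.08 at 24 h and 4.82 at 48 h.

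Those 5 belong to a larger group that was low in the W 48 h libraries. Among 31592 models with at least 1 CPM in the other 6 late libraries, 56 were at least 4-fold lower in both W 48 h libraries than in each of those 6. The same rule gave 0 models for the W 24 h pair, 6 for the BC 24 h pair and 0 for the BC 48 h pair, and only 1 model was high in the W 48 h pair. The 56 were chosen on these values, so their line differences at 48 h, with a median of 4.82 on the log2 scale, are a description. At 24 h the median was -0.08. None of the 56 was among the 15, which are 0.0400% of all models tested. The fit over both hours holds the same line difference at 24 and 48 h. Models low in W at 48 h alone could hardly be called in it, so this is no test of the 15. Of the 56, 14 were among the 29 calls at 48 h, which are 0.0774% of all models tested.

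The 12 earlier libraries were not used to choose these 56. Their median level was 0.163 and 0.194 CPM in the W 48 h libraries and 0.123 CPM in 1 earlier library, W 8 h replicate 2, where 49 of the 56 were at least 4-fold below the lowest of those 6 late libraries. In every other library the median was between 2.67 and 4.80 CPM. W 8 h replicate 1 did not share the low level, so it was seen in 1 of the 2 replicates of that group. The reads outside gene models were lowest in the same 3 libraries, at 2.79%, 3.03% and 3.33%. The next lowest share was close, at 3.37% in BC 24 h replicate 1. The rule that chose the 56 excluded low levels in that library, so its levels of them cannot be set beside its share. Whether the share of such reads has a part in the low levels was not tested. The 56 were spread over all 20 chromosomes, apart from 1 on an unplaced scaffold, with 6 on chromosome 4 as the highest count and 3 on chromosome 13.

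Of the 29 calls at 48 h, 17 had an unadjusted p of at least 0.05 or the opposite sign at 24 h, and 13 of these 17 belonged to the 56. In 13 of the 17, W 8 h replicate 2 was below the lowest of the 17 libraries other than it and the W 48 h pair. The calls at 48 h and the 56 both rest on the W 48 h values, so their overlap is a description.

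**Figure D5:**
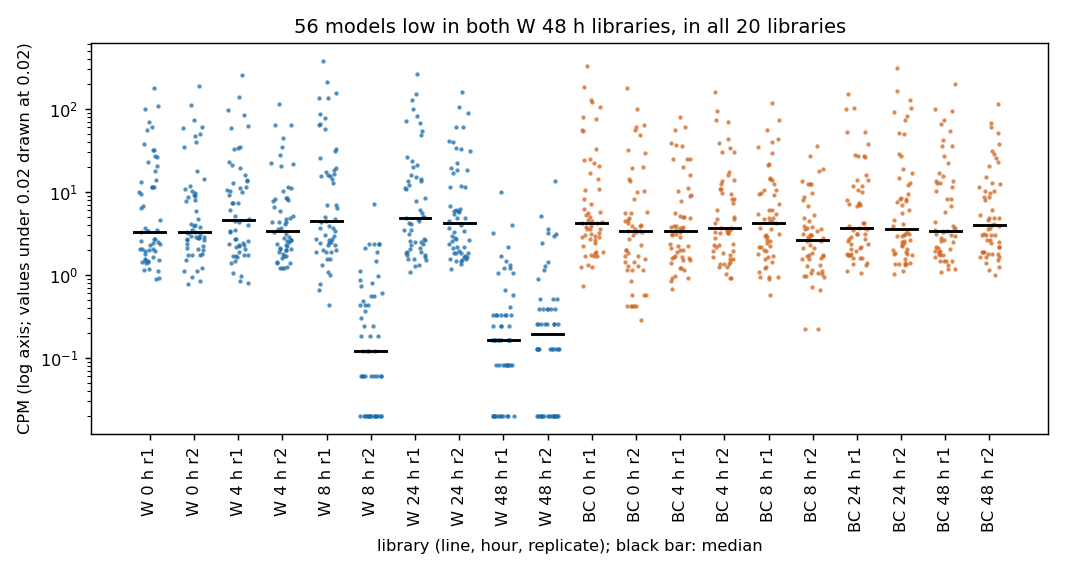
Levels of the 56 models that were low in both W 48 h libraries, in all 20 libraries, as CPM on a log axis with 1 point per model, a bar at the median and values under 0.02 drawn at 0.02. The W 48 h libraries and W 8 h replicate 2 lie low, with median levels of 0.163, 0.194 and 0.123 CPM, and the other 17 libraries have medians from 2.67 to 4.80 CPM.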

How the data were processed

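Leaf mRNA of 2 near-isogenic soybean lines was sequenced, per the labels' protocols, on an Illumina HiSeq after Trizol extraction. The authors deposited raw read counts per gene model, without normalization. TopHat 1.4.1, HTSeq 0.5.3, Cuffdiff 1.3.0 and edgeR were used, per the submitters' processing notes; the sources name no genome build, annotation release or strand setting, so reads of overlapping and antisense genes cannot be separated. The 5 rows that name no gene stayed out of library sizes and tests, with 2.79% to 4.49% of reads in no model and 1.50% to 1.76% ambiguous in the 8 libraries.

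Counts were tested with edgeR 4.0.16 in R 4.3.3 (filterByExpr by line and time, TMM, robust quasi-likelihood fit, hour plus line, 5 residual degrees of freedom, biological coefficient of variation 0.247), two-sided, with Benjamini-Hochberg adjustment over all models tested and a threshold of 0.05. Further fits held a line by hour term, the 12 earlier libraries, or all 20 libraries. Alternatives used DESeq2 1.42.0, limma 3.58.1, other scalings and filters, a replicate block and each library left out. The fit was tested on simulated data. CPM came from the counts with TMM sizes of all 20 libraries. Exact intervals and floors of 3 reads cover counting error only.

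Column names give line, hour and replicate, and which line is resistant was not given. The labels call replicates biological, with no word on plants per replicate or lanes. The replicate numbers were not shown to pair the libraries. Replicate pairs differed by more than sampling noise. None of the 66210 model names matched the RefSeq gene table (Glycine_max_v4.0), so gene functions, coordinates, sequences and the 19 gene lists were not used here. The rule for named models took up to 12 called models in each direction without overlap and at least 1 CPM in 1 line, and the 5 smallest p-values of each of the interaction and the later against earlier test; other models named were chosen after their values were seen. The members and lists were chosen with earlier results of these data known.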

Additional observations from a re-analysis of the deposited data

Results flagged for a closer look

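Among 50 groups of 4 libraries, 3 had 1 library apart from the other 3; chance flags about 1 in 20 groups. They were Glyma13g29650.1 in BC 24 h replicate 2, at 0.0249 CPM beside 0 in the other BC libraries, which is a single read; Glyma13g32470.1 in W 48 h replicate 2, at 0.517 CPM; and Glyma13g32470.1 in BC 24 h replicate 1, at 10.8 CPM. For Glyma13g32470.1 both lines stayed far apart, and its call was kept without either library.

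Among the 25 models chosen by the rule for named models, 6 had every BC library on one side of W at 24 h and on the other side at 48 h; other models were not searched for this. The interaction test of edgeR missed its threshold in all 6, with adjusted p-values of 0.0714 for Glyma08g15980.1, 0.0833 for Glyma18g14870.1, 0.0833 for Glyma06g00320.1, 0.0839 for Glyma18g12150.1, 0.0839 for Glyma02g14410.1 and 0.297 for Glyma08g25460.1. Without the filter on low counts the first 5 were called, at adjusted p-values of 0.000696 to 0.0122, and DESeq2 called them too; with each of the 8 libraries left out in turn, with voom and with the replicate block they were not called. In all 6 the W 48 h libraries were the lowest of the 8. Whether the features that set those libraries apart had a part in this was not tested.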

How the results depend on the processing

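The line differences of the 15 called models kept their sign under the 19 alternatives run for them, and the leaders of the interaction and of the later against earlier test kept theirs under those run for these tests; other models named were not recomputed. Of the 15 calls, 7 were kept under all 19 alternatives and 8 without any 1 library. Calls over both hours, higher, lower and on chromosome 13 numbered 27, 12, 15 and 13 without the filter on low counts, 51, 15, 36 and 18 with limma voom and library weights, and 389, 157, 232 and 64 with DESeq2. The fit to all 20 libraries gave 27 calls, 14 higher and 13 on chromosome 13. The 24 h contrast of the line by hour fit to the 8 libraries, counted as an alternative after seeing the data, gave 8, 2 and 2. That is the fit behind the 24 h calls given above, and no fit to the 24 h libraries by themselves was run. Leaving out 1 library gave 8 to 12 calls, 3 to 6 higher, 5 to 7 lower and 2 to 5 on chromosome 13. Calls at 24 h numbered 13 without the filter, 5 with voom, 113 with DESeq2 and 1 to 6 with 1 library left out; at 48 h 106, 10, 829 and 0 to 33. The interaction gave 16 without the filter and 282 with DESeq2; the later against earlier test gave 1 with DESeq2 and 0 without BC 0 h replicate 2, the one library left out there. The cause of these changes was not tested. Without scaling, added after seeing the data, the median of all models moved by 0.185 (log2) and 13 models were called.

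With the replicate number as a block 12 models were called, 9 of them among the 15. The numbers are not shown to pair the libraries: deviations of same-numbered libraries correlated at -0.483 at 24 h and 0.302 at 48 h. Crossing the numbers at 24 h, added after seeing the data, gave 10 calls. Where a line had 0 to 3 reads of a model, the depth sets a wide interval or only a bound on the fold.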
